A study of Mus musculus with 24 samples.

Results

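The genes described here are 49 interferon response genes of the mouse mastocytoma line P815, picked by gene symbol from the 55385 genes of an RNA-sequencing table. They comprise 4 receptor chains, 7 transcription factors, 6 nucleic acid sensors, 11 antiviral effectors, 6 genes of ISG15 conjugation, ubiquitin or ADP-ribose transfer, 10 interferon-inducible GTPases and 5 other induced or feedback genes. The 24 libraries form 8 groups of 3. SH_E2 cells were transfected with a vector for a short hairpin RNA against Esr1, the gene of estrogen receptor alpha, and treated with β-estradiol (E2), and SH cells with the same vector alone. ICI_E2 and ICI cells received the antiestrogen ICI-182780 (fulvestrant) with and without E2, and Tamo_E2 and Tamo cells received tamoxifen with and without E2. NC_E2 and NC cells carried a negative control vector, with and without E2. A treatment time of 24 h is labelled for all groups but NC and SH, and no dose is labelled. For the inhibitor arms the labels mention no vector, and none of the groups is labelled as a vehicle control, so drug, vehicle and the lack of a vector cannot be told apart when those arms are set against NC. It is not stated whether the 3 libraries of a group were separate cultures, so the p-values cover only the spread among these libraries, which could be technical.

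Interferons are cytokines that cells release on sensing viral nucleic acid. Type I interferons bind the IFNAR1 and IFNAR2 chains and act mainly through ISGF3, a transcription factor complex with IRF9 as a subunit that binds interferon-stimulated response elements. Interferon gamma binds the IFNGR1 and IFNGR2 chains and acts mainly through factors that bind gamma-activated sites. Many of the genes also have a basal level in unstimulated cells.

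The libraries held 42.1 to 68.8 M estimated counts (median 54.2). The mast cell growth factor receptor gene Kit stood at 98.3 to 175 FPKM (fragments per kilobase of transcript and M mapped fragments) in this mast cell tumour line. Of the 13 mast cell genes listed, Cpa3, Srgn, Gata2, Fcer1g, Hdc and Mitf also had 11.28 FPKM or more in every library. Cma1 stood at 1.46 to 5.97 FPKM and Tpsab1 at 0.538 to 8.81. Tpsb2, Mcpt4, Ms4a2 and Fcer1a reached no more than 1.476, 1.304, 1.203 and 0.9365 FPKM. Of 6 macrophage and monocyte genes, Cd68 stood at 16.3 to 25.2 FPKM and Lyz2 at 3.04 to 13.6, while Adgre1, C1qa, Csf1r and Itgam reached no more than 1.615, 0.536, 0.0867 and 0.0172 FPKM. Esr1, the target of the hairpin, was low throughout. Its level was 0.254, 0.181 and 0.210 FPKM in SH_E2, 0.347, 0.227 and 0.260 in SH, 0.389, 0.319 and 0.234 in NC_E2 and 0.404, 0.435 and 0.187 in NC libraries 1, 2 and 3. The ranges of SH and NC overlapped, as did those of SH_E2 and NC_E2, so the transcript does not by itself separate hairpin from vector libraries.

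Of the 49 genes, 31 had 1 FPKM or more in all 24 libraries, and 40 had it in at least 3 and were tested. Averaged over all libraries, 12 genes stood at 10 FPKM or more, 24 between 1 and 10, and 13 under 1. The most abundant was the membrane restriction factor Ifitm2 at 281.7 to 422.9 FPKM. Next came Bst2, which tethers budding virus to the cell, at 57.0 to 100.2 FPKM, and the ubiquitin-like modifier gene Isg15 at 11.9 to 146.8 FPKM. The members Irf7, Irf8, Zbp1, Mx1, Parp14, Ifi47, Iigp1, Gbp5 and Ifi44 (9 in all) were too low to be tested, and 7 of them never reached 1 FPKM. Irf7, which amplifies type I interferon production, peaked at 1.27 FPKM, and the dynamin-like antiviral GTPase gene Mx1 at 0.418.

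Ligand transcripts were scarce beside this basal expression of receptors and response genes. Of 12 interferon genes looked up, 9 had no count in any library. The others were Ifng with at most 10 estimated counts, Ifnl2 with at most 4 and Ifnl3 with at most 14 in a library. The receptor chain with the highest level was Ifnar2 at 15.1 to 24.7 FPKM. The receptor-bound kinases Jak1, at 18.8 to 24.5 FPKM, and Tyk2, at 5.06 to 9.31, were present in every library. Levels in FPKM are per length and can be set side by side between genes.

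**Figure D1:**
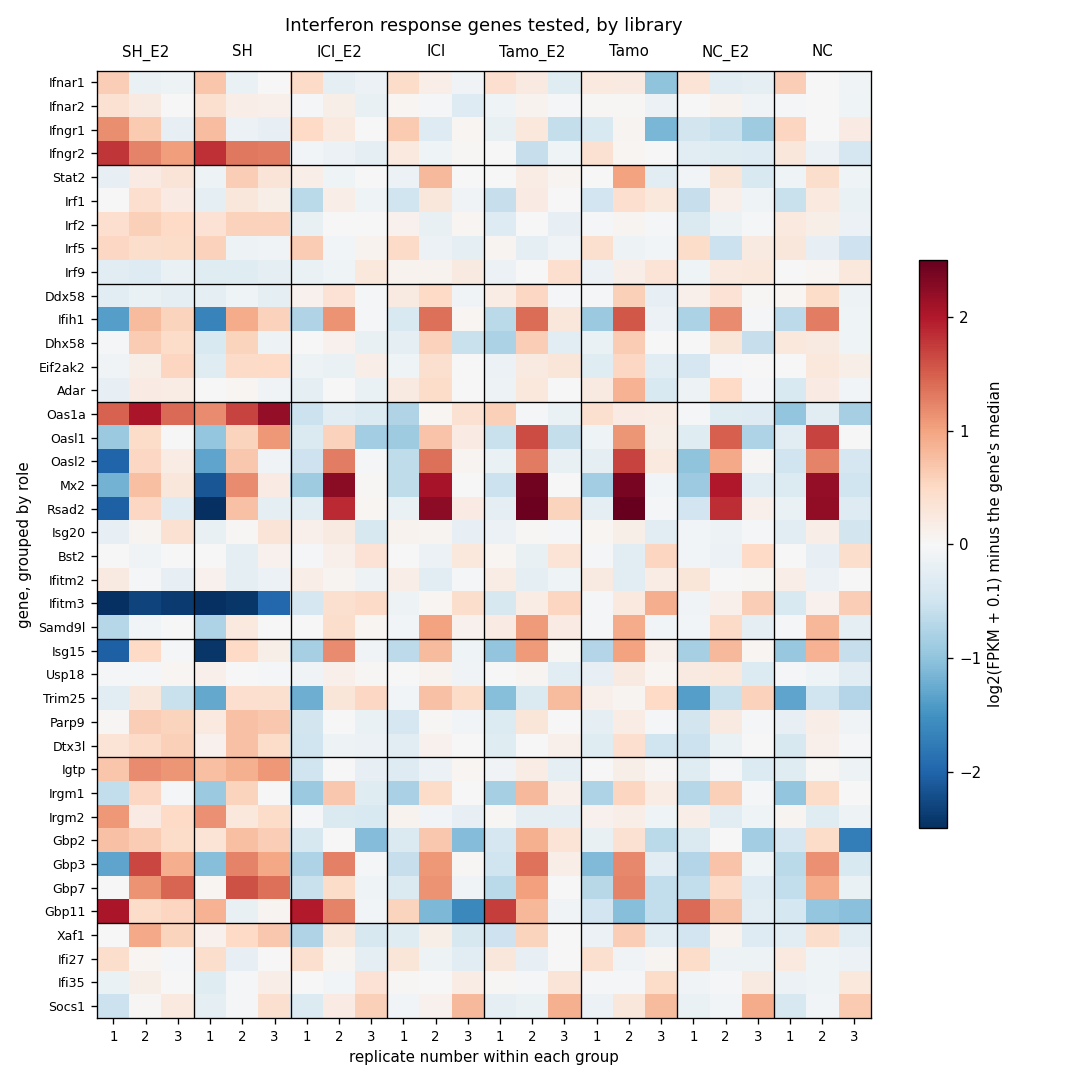
Level of the 40 tested interferon response genes in 24 libraries, as log2(FPKM + 0.1) minus each gene's median, with genes in rows by role and libraries in columns by group and replicate number. Ifitm3 is low in all 6 SH_E2 and SH libraries, and Rsad2, Mx2, Isg15 and Ifih1 are high in replicate 2 of every group.

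The 40 tested genes varied along the hairpin and, more widely, along the replicate number, as the heat map shows. Because same-numbered libraries of different groups deviated together, each hairpin count below is given both without and, where the pairing criterion was met, with the replicate number as a term of the fit.

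The hairpin comparison asks how cells with the Esr1 hairpin differ from vector cells. In SH cells, the interferon gamma receptor chain Ifngr2, the oligoadenylate synthetase Oas1a and the immunity-related GTPases Igtp and Irgm2 were higher than in NC cells, and the antiviral membrane protein gene Ifitm3 was lower. These were 5 of the 40 genes called (4 higher, 1 lower) by edgeR's quasi-likelihood test at an adjusted p under 0.05 over all 12183 genes tested, where 9.07% of all genes were called, 4.92% higher and 4.15% lower. The median log2 fold change of the 40 was 0.06, against 0.00 over all genes tested, and 9 of the 40 had an unadjusted p under 0.05. The share of members called was thus near that of all genes. Oas1a, counted among the higher genes, entered the tests through the hairpin libraries, so its call is a description. With E2 in both groups, 6 of the 40 were called (5 higher, 1 lower), against 9.59% of all genes (5.30% higher and 4.28% lower), with a median of 0.12 against 0.00.

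Promoter sequence is shown for genes that carry the patterns described here, so that the interferon-type letters in front of them can be read. RefSeq promoters (GRCm38.p6, 250 bases before to 50 after the start) were matched by symbol for 39 of the 49 genes. An interferon-stimulated response element was searched as a pair of GAAA half-sites with any 2 bases between them, read as TTTC half-sites on the other strand, and a gamma-activated site as TTCNNNGAA, the same on both strands. The first was found in 19 of the 39 promoters (48.7%), against 3.99% of 27025 genes with a promoter, and the second in 16 (41%), against 9.55%. A match is a description of the letters and no evidence of binding.

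Among the genes higher in hairpin cells, 3 held such letters close to the start site, shown in capitals. Igtp (chr11:58199491-58199551, plus strand) and Irgm2 (chr11:58214882-58214942, plus) share a gamma-activated site followed, after 2 bases, by a response element. Their windows were identical at 59 of 61 bases. Oas1a (chr5:120907526-120907565, minus) holds 2 overlapping response elements that end next to its start site. Its promoter also held a gamma-activated site further upstream, outside the stretch shown. The promoter of Ifngr2 held neither kind of letters in its window. That of Ifitm3, the gene lower in hairpin cells, held both, all of them after its start site.
Igtp: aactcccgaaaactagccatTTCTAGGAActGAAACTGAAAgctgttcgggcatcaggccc
Irgm2: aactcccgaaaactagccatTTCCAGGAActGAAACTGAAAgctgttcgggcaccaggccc
Oas1a: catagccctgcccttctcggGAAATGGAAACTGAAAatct

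Ifitm3 (ENSMUSG00000025492, chromosome 7, 141009586 to 141010770, minus strand, GRCm38) encodes a restriction factor that blocks virus entry from endosomes. Its level was 4.57, 8.39 and 7.93 FPKM in SH_E2 libraries 1, 2 and 3 and 4.61, 7.70 and 10.8 in SH, against 39.9, 46.3 and 64.5 in NC_E2 and 32.3, 45.7 and 64.8 in NC. All 6 hairpin libraries lay below all 18 others, the lowest of which stood at 31.8 FPKM. The log2 fold change was -2.68 ± 0.39 (SE) for SH against NC (adjusted p = 0.000127, edgeR) and -2.89 ± 0.39 for SH_E2 against NC_E2 (adjusted p = 6.54e-05). Ifitm2, a near copy that lies beside it, had a log2 fold change of -0.15 for SH against NC, and Ifitm1 of -0.40. None of the 30 tested genes within 500 kb of Ifitm3 was called for SH against NC by edgeR, and 2 of them were called lower for SH_E2 against NC_E2.

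The gene of the interferon gamma receptor chain Ifngr2 (ENSMUSG00000022965, chromosome 16, 91547072 to 91565623, plus strand) had a higher transcript level in hairpin cells. Its level was 6.32, 4.28 and 3.71 FPKM in SH_E2 and 6.496, 4.53 and 4.47 in SH, against 1.42, 1.40 and 1.38 in NC_E2 and 2.16, 1.57 and 1.29 in NC. The hairpin libraries did not overlap with any other library. For SH against NC the log2 fold change was 1.57 ± 0.22 (adjusted p = 9.85e-05, edgeR) and 1.71 ± 0.22 for SH_E2 against NC_E2 (adjusted p = 4.25e-05). The type I receptor genes Ifnar1 and Ifnar2, which lie within 500 kb of Ifngr2, had log2 fold changes of -0.03 and 0.21 for SH against NC and were not called. Of the 14 tested genes within that distance, 2 were called higher (Tmem50b and Donson) and 1 lower (4932438H23Rik) for SH against NC.

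The ligand-binding chain of that receptor, Ifngr1, was called with E2 present. It stood at 7.04, 4.98 and 2.68 FPKM in SH_E2, against 2.23, 2.10 and 1.63 in NC_E2. Without E2 it stood at 5.40, 2.79 and 2.67 in SH and 4.57, 3.12 and 3.61 in NC, and the groups overlapped. With E2 its log2 fold change was 1.25 ± 0.37 (adjusted p = 0.0359, edgeR), and -0.12 ± 0.36 without. The call was lost without any of 5 libraries, at adjusted p from 0.072 without NC_E2 replicate 1 to 0.185 without SH_E2 replicate 1, and the difference between both contrasts was not called (1.37, adjusted p = 1).

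Oas1a (ENSMUSG00000052776, chromosome 5, 120896256 to 120907521, minus strand) makes the oligoadenylates that activate RNase L. It reached 1 FPKM in the 6 hairpin libraries and in no other, so it entered the tests through the group in which it was high, and its call is a description. Its level was 1.59, 2.43 and 1.53 FPKM in SH_E2 and 1.28, 1.88 and 2.68 in SH, against 0.487, 0.398 and 0.386 in NC_E2 and 0.208, 0.400 and 0.243 in NC. As fitted, the log2 fold change was 2.70 ± 0.38 for SH against NC and 2.06 ± 0.37 for SH_E2 against NC_E2. Oas1 genes are near copies of each other, and reads could be split between them.

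Igtp and Irgm2 encode immunity-related GTPases that act on the vacuoles of intracellular pathogens. They are neighbours on the plus strand of chromosome 11, at 58199556 to 58207591 and 58199618 to 58222782, and their models overlap on that strand, so their reads cannot be fully told apart. Igtp stood at 9.63, 13.6 and 12.9 FPKM in SH_E2 and 10.0, 11.1 and 12.6 in SH, against 4.77, 5.85 and 4.68 in NC_E2 and 4.81, 6.03 and 5.42 in NC. Both hairpin groups lay above every other library, the highest of which stood at 6.81 FPKM. The log2 fold change of Igtp was 0.99 ± 0.18 for SH against NC (adjusted p = 0.00105, edgeR) and 1.19 ± 0.18 for SH_E2 against NC_E2 (adjusted p = 0.000203). Of the 15 tested genes within 500 kb of Igtp, 4 were called higher, Irgm2 among them, and 0 lower for SH against NC.

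Irgm2 stood at 6.79, 3.61 and 4.47 FPKM in SH_E2 and 7.06, 3.78 and 4.35 in SH, against 3.53, 2.58 and 2.90 in NC_E2 and 3.27, 2.53 and 2.85 in NC. Its replicate 1 was the highest library of each of these groups. The log2 fold change was 0.75 ± 0.22 for SH against NC (adjusted p = 0.0350, edgeR), and it missed the threshold for SH_E2 against NC_E2 (0.66, adjusted p = 0.0628). Without SH replicate 1 it was 0.45 (adjusted p = 0.254), and without NC replicate 2 or 3 the adjusted p was 0.142 or 0.0984.

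Irf2, which competes with Irf1 for its binding sites, was called with E2 present. It stood at 3.36, 3.77 and 3.55 FPKM in SH_E2 and 3.21, 3.76 and 3.71 in SH, against 1.92, 2.27 and 2.42 in NC_E2 and 2.96, 2.76 and 2.23 in NC. Here too the 6 hairpin libraries lay above the 18 others, which reached 2.96 FPKM. For SH_E2 against NC_E2 the log2 fold change was 0.64 ± 0.14 (adjusted p = 0.0044, edgeR, and 0.0662 on these 6 libraries alone) and 0.37 ± 0.14 for SH against NC (adjusted p = 0.107).

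**Figure D2:**
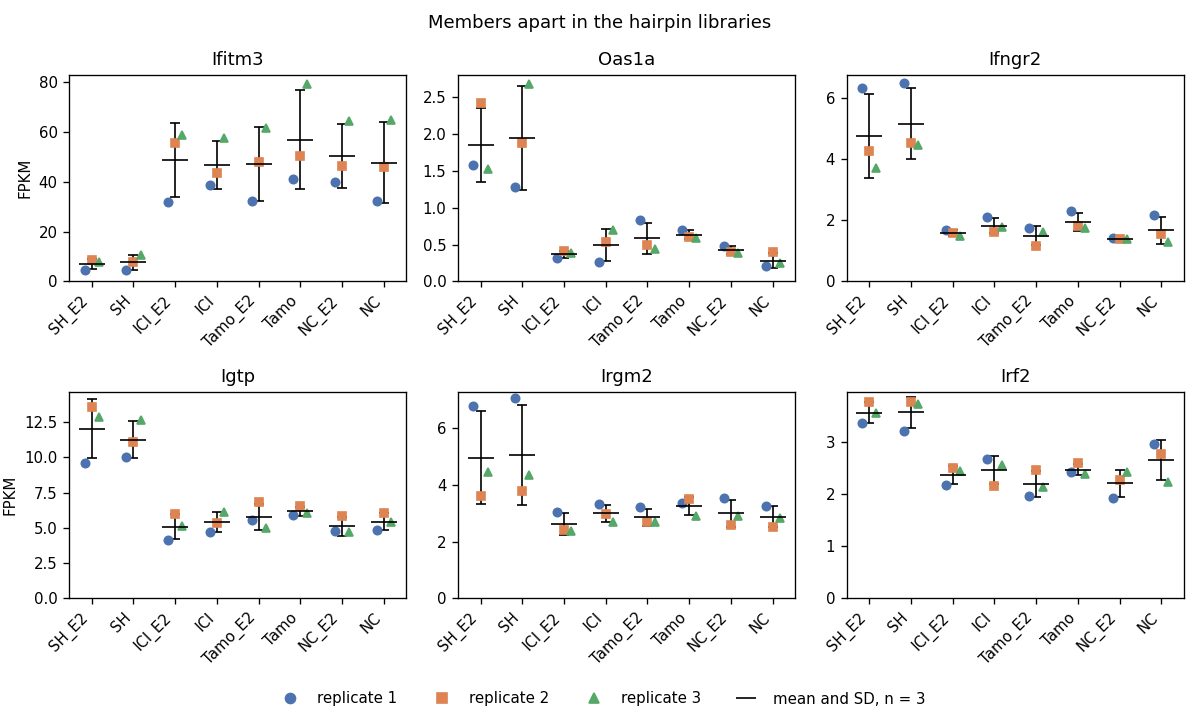
FPKM of the 6 interferon response genes whose hairpin libraries do not overlap with the other 18, by group, with 1 point per library, the mean as a bar and the SD (n = 3). Ifitm3 lies between 4.57 and 10.8 FPKM in SH_E2 and SH and at 31.8 or above elsewhere, while Oas1a, Ifngr2, Igtp, Irgm2 and Irf2 lie higher in the hairpin groups.

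In all, 6 of the 40 tested genes kept the SH_E2 and SH libraries apart from every other library, 5 above (Ifngr2, Irf2, Oas1a, Irgm2 and Igtp) and 1 below (Ifitm3). Of all genes tested, 8.95% did so. Oas1a entered the tests through the hairpin libraries, so its place among the 6 is a description. The remaining effectors and the sensors were not called in either hairpin comparison. The 7 tested GTPases had a median log2 fold change of 0.88 for SH against NC, against 0.00 over all genes. They include Gbp11, which stayed under 1 FPKM in every SH and NC library. Gbp2, Gbp3 and Gbp7 are neighbours on chromosome 3. All 6 tested genes within 500 kb of Gbp2, Gbp3 and Gbp7 among them, had positive log2 fold changes (median 0.40), and Pdlim5 (1.48) was called. The part of this region in the median of the GTPases was not tested. Of the 7, 2 were called, Igtp and Irgm2, whose models overlap.

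With the replicate number in the fit, 14 of the 40 genes were called for SH against NC (10 higher, 4 lower), where 21.1% of all genes were called, 11.0% higher and 10.2% lower. The 9 added calls were Gbp11 (1.45, adjusted p = 0.0338), Gbp2 (1.11, adjusted p = 0.0379), Gbp7 (0.95, adjusted p = 0.0201), Parp9 (0.54, adjusted p = 0.000135), Dtx3l (0.49, adjusted p = 0.0203) and Irf2 (0.36, adjusted p = 0.0439) on the higher side, and Rsad2 (-1.30, adjusted p = 0.0175), Irf9 (-0.44, adjusted p = 0.00342) and Ddx58 (-0.39, adjusted p = 0.0111) on the lower side. Gbp11 stayed under 1 FPKM in every SH and NC library and was tested through libraries with E2, so its call is a description. The guanylate-binding proteins Gbp2, Gbp7 and Gbp11 are large GTPases that attack pathogen vacuoles, and Parp9 and Dtx3l form an ADP-ribose and ubiquitin transfer complex. Parp9 (chromosome 16, 35938470 to 35972605) and Dtx3l (35926511 to 35939151) overlap on opposite strands in a short stretch at their starts. The strand protocol is not stated, so reads within that stretch cannot be told apart. Irf9 is the DNA-binding subunit of ISGF3, and its model overlaps Rnf31 on the same strand. Gbp2 and Gbp7 lie on chromosome 3, where 85 of 597 tested genes were called higher and 20 lower for SH against NC in the fit without the replicate term.

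**Figure D3:**
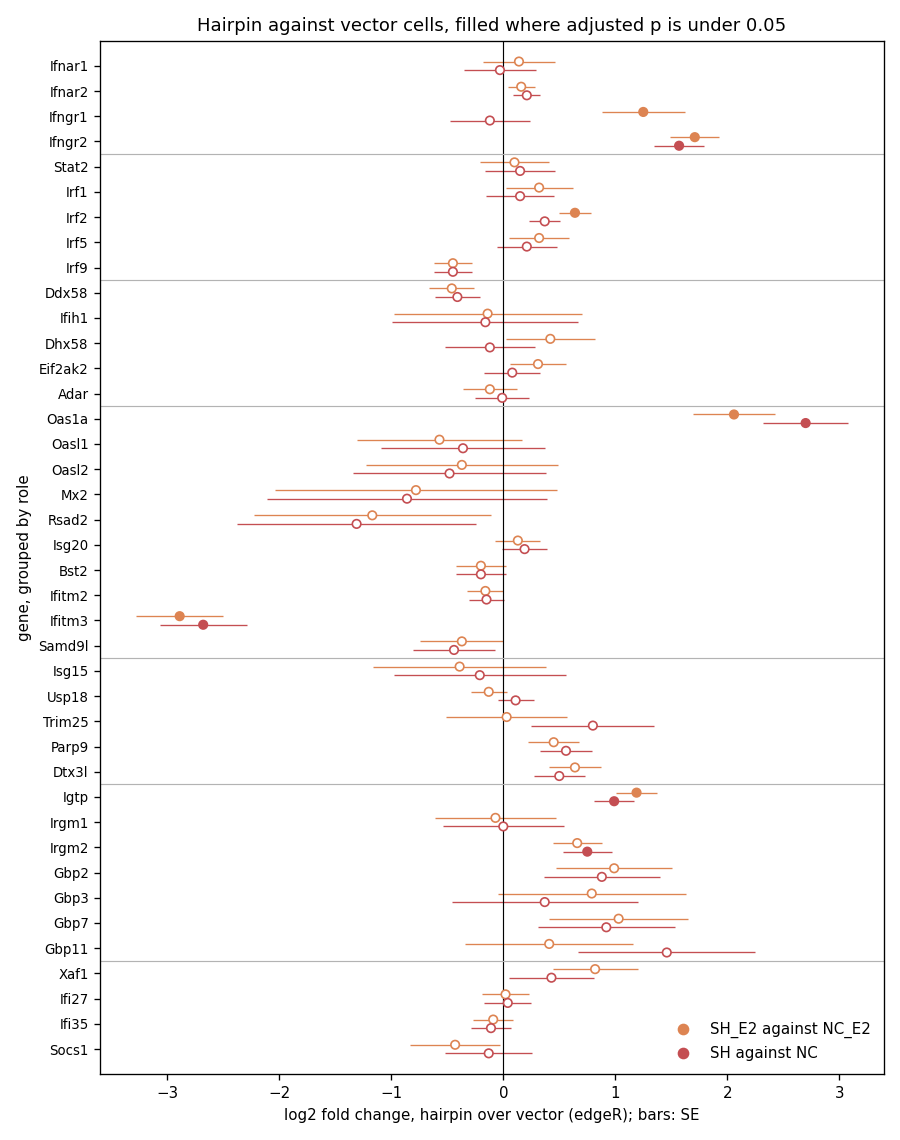
Log2 fold change with SE for the 40 tested genes by role, for SH_E2 against NC_E2 and SH against NC from edgeR without the replicate term. Filled points have an adjusted p under 0.05: 6 for SH_E2 against NC_E2 and 5 for SH against NC, with Ifitm3 near -2.9 and -2.7 and Ifngr2 near 1.7 and 1.6.

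Rsad2, the gene of the antiviral enzyme viperin, shows how the replicates bear on such values. It stood at 2.36, 14.2 and 7.93 FPKM in SH_E2 and 1.35, 16.6 and 8.44 in SH, against 7.14, 35.9 and 10.9 in NC_E2 and 8.86, 46.4 and 7.99 in NC libraries 1, 2 and 3. Replicate 2 was the highest library in each group, and the groups overlapped widely. In replicate 3 the SH library was not below the NC library. The replicate term takes the replicate differences as equal in all arms. For Rsad2 and Gbp7 the difference of replicate 3 against 1 was called larger in the SH arm (SH_E2 and SH). Without the replicate term the log2 fold change of Rsad2 for SH against NC was -1.31 ± 1.07 (adjusted p = 0.563, edgeR). Without NC replicate 2 it was 0.01.

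Other genes of the pathway showed hairpin calls in the higher direction. Of 32 further tested interferon-induced genes, 8 were higher and 0 lower for SH against NC, beside 4.92% higher and 4.15% lower of all genes, with a median log2 fold change of 0.49 against 0.00 for all genes. Parp12, an antiviral ADP-ribosyltransferase, rose by a log2 fold change of 1.38 ± 0.22 (adjusted p = 0.000298, edgeR). Ube2l6, the conjugating enzyme for ISG15, stood at 1.82 ± 0.39 (adjusted p = 0.00428) and the interferon-induced gene Nmi at 0.86 ± 0.20 (adjusted p = 0.00679). For SH_E2 against NC_E2, 12 of the 32 were called higher and 0 lower, beside 5.30% and 4.28% of all genes. Some of the 32 lay near the 1 FPKM limit for testing, such as Oas1c at 0.386 to 1.53 FPKM, called for SH_E2 against NC_E2. How many entered the tests through the hairpin libraries was not counted, so both counts of the 32 are a description.

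The other receptor chains and kinases, the adaptors of the sensing pathway and the negative regulators had 0 genes called in both hairpin comparisons by edgeR without the replicate term, with 0, 1 and 1 of them at an unadjusted p under 0.05 for SH against NC.

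Markers of cell identity moved beside these genes. The macrophage list summed to 31.3 to 36.4 FPKM in SH_E2 and 29.9 to 33.9 in SH, against 22.6 to 25.3 in NC_E2 and 23.8 to 26.2 in NC. Of its 6 genes 2 were tested, and the lysozyme gene Lyz2 was called (log2 fold change 1.24 for SH against NC) and Cd68 was not. Adgre1, too low to be tested, averaged 0.988 ± 0.545 FPKM in SH_E2 and 0.864 ± 0.352 in SH, against 0.482 ± 0.139 in NC_E2 and 0.448 ± 0.303 in NC (SD, n = 3 each). The defining markers Csf1r and Itgam were near 0 in all groups. Of 10 tested mast cell genes, the carboxypeptidase gene Cpa3 was higher (1.18) and Srgn, Tpsab1 and Tpsb2 were lower in SH than in NC. The tryptase genes Tpsab1 and Tpsb2 had log2 fold changes of -2.77 and -3.34. Tpsb2 reached 1 FPKM in 4 libraries, none of them SH_E2 or SH. It entered the tests through groups in which it was high, so its call is a description. The part of these markers in the hairpin results was not tested. In bulk RNA, fewer cells of a type and less RNA per cell cannot be told apart.

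The antiestrogen arms were set against vector cells and against each other. ICI-182780 is a steroidal antiestrogen that leads to loss of the receptor protein, and tamoxifen is a nonsteroidal receptor modulator. None of the 40 genes was called by edgeR for ICI against NC or Tamo against NC, where 0.00821% of all genes were called in each, nor for ICI_E2 against NC_E2 or Tamo_E2 against NC_E2, where 0% were called. DESeq2 and limma called 0 as well. At an unadjusted p under 0.05 stood 2, 1, 1 and 0 genes in these comparisons in that order.

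The smallest unadjusted p for ICI against NC belonged to Trim25, the ubiquitin ligase that acts with the sensor RIG-I (log2 fold change 1.23 ± 0.55, edgeR adjusted p = 1), and to Oas1a (0.79 ± 0.37). For Tamo against NC they belonged to Oas1a (1.15 ± 0.37, unadjusted p = 0.00555 and adjusted p = 0.9999, edgeR) and Trim25 (1.06 ± 0.55). Trim25 stood at 11.4, 19.9 and 16.4 FPKM in ICI libraries 1, 2 and 3 and 13.0, 12.4 and 16.8 in Tamo. NC libraries had 4.69, 8.45 and 7.13. Every ICI and Tamo library lay above every NC library, as for 0.476% of all genes, and Trim25 was the 1 member of 40 with that order. With E2 the groups overlapped, at 12.3 ± 6.35 FPKM in ICI_E2 and 11.9 ± 7.84 in Tamo_E2, against 10.2 ± 6.92 in NC_E2 (SD, n = 3 each). The median log2 fold change of the 40 genes for Tamo against NC was 0.14, against 0.01 over all genes. Members can vary together, so they are not independent of each other. Some had a wide spread within groups, such as Rsad2 at 26.3 ± 29.9 FPKM in Tamo and 21.1 ± 21.9 in NC (SD, n = 3 each). The ICI and Tamo comparisons without E2 use the same NC libraries.

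With E2 present, the smallest unadjusted p for ICI_E2 against NC_E2 were those of Ifngr1 (0.92 ± 0.36) and the RNA-editing enzyme gene Adar (-0.25 ± 0.24), and for Tamo_E2 against NC_E2 those of Gbp2 (0.80 ± 0.52) and Ifngr1 (0.52 ± 0.36). All had an edgeR adjusted p of 0.9998 or above. Between ICI and Tamo themselves, labelled with the same time and with no dose, 0 of the 40 genes were called and 0% of all genes, by edgeR, DESeq2 and limma, and 0 had an unadjusted p under 0.05. The log2 fold changes ran from -0.36 to 0.60 with a median SE of 0.315. The interval of 2 SE on either side was -0.12 to 1.32 for Ifngr1 and -0.56 to 0.16 for Igtp, which had the smallest p, so these data do not show that the compounds act alike on these genes.

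Estradiol itself was the treatment named in the design. Over the 4 arms the member with the smallest p was the guanylate-binding protein gene Gbp11 (ENSMUSG00000092021, chromosome 5, 105323042 to 105346472, minus strand), a low transcript. It reached 1 FPKM in 4 libraries, all of them replicate 1 of a group with E2, so it entered the tests through libraries in which it was high, and its values and calls are a description. It stood at 1.72, 0.505 and 0.545 FPKM in SH_E2, against 0.708, 0.291 and 0.361 in SH. It stood at 1.64, 0.945 and 0.325 in ICI_E2, against 0.551, 0.103 and 0.0453 in ICI. In the tamoxifen arm it stood at 1.36, 0.684 and 0.316 in Tamo_E2, against 0.215, 0.113 and 0.189 in Tamo. The vector arm had 1.09, 0.632 and 0.262 in NC_E2, against 0.226, 0.125 and 0.114 in NC. In each of the 12 same-numbered pairs the library with E2 was the higher, which held for 0.213% of all genes tested. In the SH arm the pairing by number is weak, since 2 of 6 libraries correlated best with their own number. Replicate 1 was the highest library of every group.

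**Figure D4:**
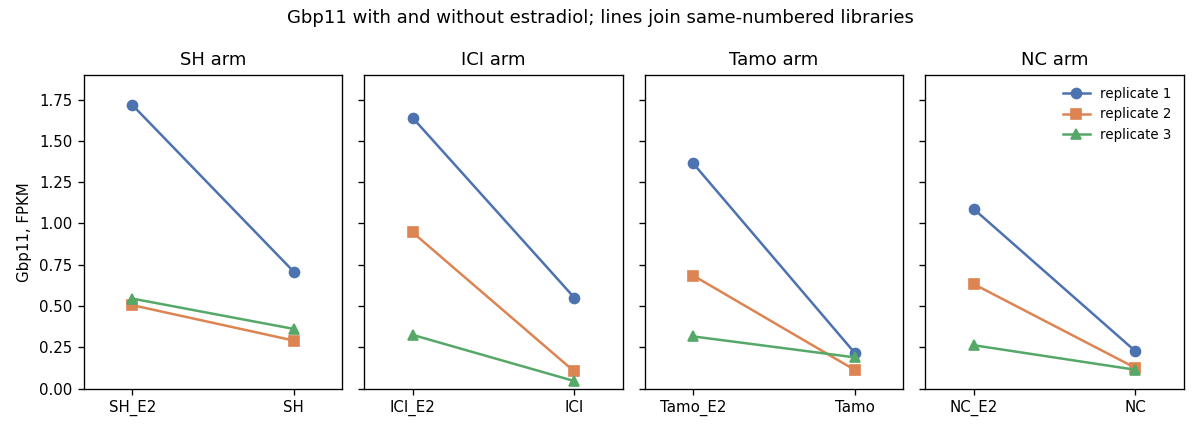
Gbp11 level in FPKM with and without E2 in each arm, with 1 point per library and lines joining same-numbered libraries. All 12 lines are lower without E2, and replicate 1 lies highest in all 8 groups, up to 1.72 FPKM in SH_E2.

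Over the 4 arms, the log2 fold change of Gbp11 with E2 was 1.82 ± 0.39 and missed the threshold in the fit without the replicate term (edgeR adjusted p = 0.199), where 0 of the 40 genes were called, against 0.0575% of all genes (0.0492% higher), and 2 had an unadjusted p under 0.05. With the replicate term it was 1.75 ± 0.23 (adjusted p = 0.0024), the only member called, against 0.115% of all genes. DESeq2 without that term also called it (adjusted p = 0.00208), and limma called 0. Other Gbp genes are near copies of Gbp11. The member with the next smallest p was Ifngr2 (-0.23 ± 0.11), lower with E2 in 11 of 12 pairs.

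Within single arms, 0 of the 40 genes were called for E2 in SH, ICI, Tamo or NC by edgeR, DESeq2 or limma, and 0% of all genes were called by edgeR in each. At an unadjusted p under 0.05 stood 0, 1, 1 and 2 genes in that order. The log2 fold change of Gbp11 was 1.01 ± 0.76 in SH, 2.06 ± 0.79 in ICI, 2.15 ± 0.80 in Tamo and 2.06 ± 0.80 in NC, and it had the smallest p in each arm. Next came Ifngr1 in SH (0.44 ± 0.36), Adar in ICI (-0.35 ± 0.24), Ifngr2 in Tamo (-0.38 ± 0.22) and Ifngr1 in NC (-0.92 ± 0.36). Interaction terms that set the E2 effect of SH, ICI and Tamo against that of NC were called for 0 of the 40 genes by edgeR, DESeq2 or limma, against 0% of all genes, with 1, 0 and 1 genes at an unadjusted p under 0.05.

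The widest variation of these genes ran along the replicate number, which the labels give and do not explain. The comparisons between replicate numbers were added after the data were seen, with the group as the other term of the fit and 8 libraries per number. Against replicate 1, replicate 2 libraries had higher levels of the RNA sensor Ifih1 (MDA5), the effectors Mx2, Rsad2, Oasl1 and Oasl2, the modifier Isg15 and the GTPases Gbp3, Gbp7 and Irgm1. Of the 40 genes, 31 were called (24 higher, 7 lower) where 37.8% of all genes were called, 19.1% higher and 18.7% lower. The median log2 fold change was 0.44 for the 40 and -0.01 for all genes.

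Isg15 stood at 91.5 to 146.8 FPKM (median 116.2) in the 8 replicate 2 libraries, at 43.4 to 72.01 (median 64.6) in replicate 3 and at 11.9 to 41.1 (median 34.9) in replicate 1. Rsad2 stood at 14.2 to 60.8 (median 41.5) in replicate 2, 7.93 to 14.7 (median 9.97) in replicate 3 and 1.35 to 8.86 (median 8.36) in replicate 1. Irgm1, which guards autophagy and the vacuole membrane, stood at 7.94 to 10.3 (median 8.50), 4.65 to 6.57 (median 5.78) and 2.86 to 3.76 (median 3.23) in the same order. For Isg15 and Irgm1 the ranges of the numbers did not overlap, although each number spans all 8 groups.

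The log2 fold change of replicate 2 against replicate 1 was 3.18 ± 0.28 for Mx2 (adjusted p = 1.72e-07, edgeR), 2.59 ± 0.23 for Rsad2 (adjusted p = 2.06e-07) and 2.18 ± 0.18 for Ifih1 (adjusted p = 1.04e-07). It was 2.16 ± 0.20 for Gbp3, 2.14 ± 0.22 for Oasl2, 1.99 ± 0.19 for Isg15, 1.62 ± 0.27 for Oasl1, 1.49 ± 0.17 for Gbp7 and 1.45 ± 0.07 for Irgm1. The activator Irf1 was higher as well, by 0.75 ± 0.06. Sensors, effectors, GTPases and the modifier Isg15 were thus among the genes with the largest increases, while other effectors and GTPases were lower. Among the 7 lower genes were Gbp11 (-1.19), Irf5 (-0.54), the receptor chains Ifnar1 (-0.48) and Ifngr2 (-0.36), and the abundant Ifi27 (-0.44) and Ifitm2 (-0.31). The share of members called lower was near that of all genes, 18.7%. Gbp11 entered the tests through replicate 1 libraries, as given above, so its call is a description.

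**Figure D5:**
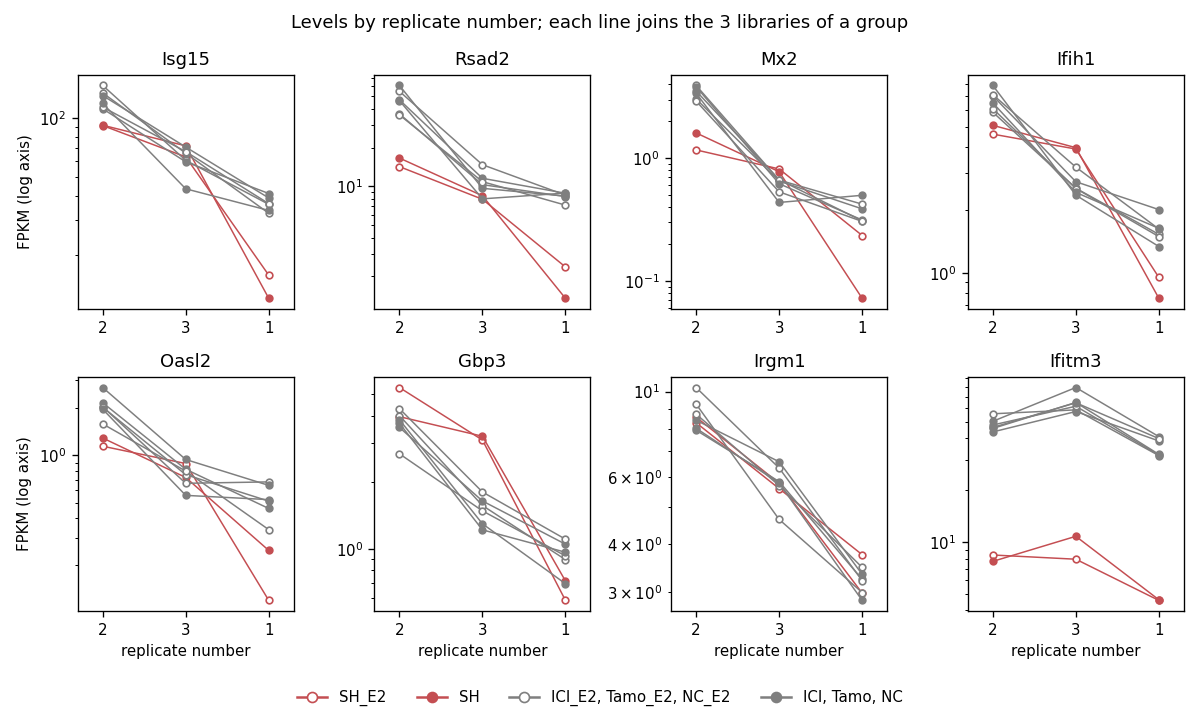
FPKM on a log axis for 8 interferon response genes by replicate number, in the order 2, 3 and 1, with each line joining the 3 libraries of a group. Isg15, Rsad2, Mx2, Ifih1, Oasl2, Gbp3 and Irgm1 are highest in replicate 2 in all 8 groups, while Ifitm3 separates by hairpin and lies lowest in replicate 1.

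In 11 of the 40 genes (Irf1, Ddx58, Ifih1, Adar, Rsad2, Mx2, Oasl2, Isg15, Parp9, Gbp3 and Irgm1) replicate 2 was the highest of the 3 libraries in all 8 groups, against 1.55% of all genes tested. Replicate 3 lay between the other numbers for many of them. Against replicate 1 it had 29 genes called (20 higher, 9 lower), where 42.6% of all genes were called, 20.9% higher and 21.7% lower. The share lower was thus near that of all genes. The median of the 40 was 0.26, and all 4 receptor genes were lower, from -0.70 for Ifnar1 to -0.15 for Ifnar2. The feedback inhibitor Socs1, which blocks the receptor kinases, was 0.97 higher and Ifitm3 0.91 higher. Replicate 2 against replicate 3 had 24 called (19 higher, 5 lower), where 19.4% of all genes were called, 10.6% higher and 8.78% lower. Mx2 stood at 2.03 and Rsad2 at 1.75, with Socs1 at -0.64, Bst2 at -0.47 and Ifitm3 at -0.37.

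Of the 11 genes highest in replicate 2 in every group, 9 had a promoter in the table and 6 of these held the response element letters, as did 13 of the other 30. Gamma-activated site letters were held by 2 of the 9 and by 14 of the other 30. Oasl1 and Oasl2, also higher in replicate 2, held neither kind of letters in their promoters. The promoters of 5 genes that were higher in replicate 2 are shown, with capitals on the response element letters, overlapping copies included, and in Gbp7 also on its 2 matches to the gamma-activated site. Isg15 (chr4:156200855-156200916, minus strand) holds 3 overlapping copies, the first starting 78 bases before the start site. Rsad2 (chr12:26456543-26456592, minus), Irgm1 (chr11:48871421-48871470, minus), Gbp3 (chr3:142559979-142560034, plus) and Gbp7 (chr3:142530210-142530312, plus) follow.
Isg15: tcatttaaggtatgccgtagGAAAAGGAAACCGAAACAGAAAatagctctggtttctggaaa
Rsad2: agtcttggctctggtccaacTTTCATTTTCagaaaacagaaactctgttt
Irgm1: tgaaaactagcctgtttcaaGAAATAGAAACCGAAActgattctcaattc
Gbp3: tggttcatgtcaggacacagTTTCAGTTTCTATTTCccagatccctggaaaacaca
Gbp7: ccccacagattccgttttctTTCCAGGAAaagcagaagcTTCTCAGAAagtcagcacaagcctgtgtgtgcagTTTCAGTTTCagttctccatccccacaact

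Other interferon-induced genes moved in both directions with the replicate number. Of the 32 tested, 12 were higher and 6 lower in replicate 2 than in replicate 1, beside 19.1% higher and 18.7% lower of all genes, so that the share lower was at that of all genes. Ifit1 stood at 2.76 ± 0.29 (adjusted p = 1.33e-06, edgeR), Ifit3 at 2.37 ± 0.21 (adjusted p = 2.13e-07) and Cmpk2 at 1.84 ± 0.16 (adjusted p = 1.72e-07). The mRNA cap-sensing proteins of Ifit1 and Ifit3 and the mitochondrial nucleotide kinase of Cmpk2 are classical interferon-induced products. Of 4 other receptor chains and kinases, 0 were higher and 3 lower. Interferon ligand transcripts were not tested at these levels.

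Depth and cell markers also differed with the number. Replicate 2 libraries held 44.7 to 59.4 M estimated counts, replicate 3 51.4 to 68.8 and replicate 1 42.1 to 57.7. The mast cell list summed to a median of 852 FPKM in replicate 2, 817 in replicate 3 and 1057 in replicate 1, and the macrophage list to 25.2, 25.0 and 27.7. Mast cell genes called for replicate 2 against 1 were 5 lower and 0 higher, and Lyz2 was higher (0.33). The dendritic, T and NK, and B cell lists each summed to 0.225 FPKM or less in every library. The part of depth and of these markers in the replicate differences was not tested.

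Hairpin libraries differed from the others in how strongly some genes followed the number. For replicate 3 against 1, 9 of the 40 genes had a larger difference in the SH arm (SH_E2 and SH) than in the other arms and 0 a smaller one, against 4.32% of all genes called and 2.55% higher. The differences in log2 were 1.80 ± 0.28 for Rsad2 (adjusted p = 0.00236, edgeR), 1.55 ± 0.21 for Isg15 (adjusted p = 0.000539), 1.49 ± 0.18 for Ifih1 (adjusted p = 0.000234), 1.68 for Mx2, 1.61 for Oasl2, 1.59 for Gbp3, 1.03 for Gbp7, 0.78 for Samd9l and 0.73 for Isg20. Isg15 shows the pattern. It stood at 15.7 and 11.9 FPKM in replicate 1 of SH_E2 and SH, against 32.5 to 41.1 in replicate 1 of the other groups, and at 63.2 and 72.01 in replicate 3 of SH_E2 and SH, against 43.4 to 71.0 in the other groups. Leaving out SH replicate 1 or SH_E2 replicate 3 left 4 of the 9 calls, and leaving out SH replicate 3 left 5.

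For replicate 2 against 1 such a difference was called for 3 of the 40 genes, Isg15 (0.98), Gbp3 (0.89) and Irgm2 (-0.62), against 4.92% of all genes. None was called without SH replicate 1 or SH_E2 replicate 2, and 1 without SH replicate 2 or SH_E2 replicate 1, in the same edgeR fit.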

How the data were processed

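RNA of 24 P815 libraries was sequenced, and the members and lists used here were chosen with earlier results of these data known. Cell culture in RPMI-1640 with 10% serum and extraction of total RNA by TRIzol are per the labels. The submitters' processing notes name cutadapt, HISAT2 and the build GRCm38, without versions, and the quantifier is not given in the sources used here. What the authors deposited is 1 table of 55385 genes with FPKM values, in which a placeholder of 0.0001 was read as 0. The deposited whole-number counts were treated as estimated counts made by the authors, since a count of 4 made up 16.2% of values from 1 to 40. Columns of other samples numbered 0.

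Genes with 1 FPKM or more in at least 3 libraries (12183) went into edgeR 4.0.16 (quasi-likelihood F test, TMM scaling, a coefficient for each group, no replicate block). Tests were two-sided, with Benjamini-Hochberg adjustment across these genes. A gene was called at an adjusted p under 0.05. SE was taken as |log2 fold change| divided by sqrt(F), and errors of FPKM are SD. The script was tested on simulated data. Same-numbered libraries correlated in their deviations from the group means (0.0949 to 0.472), every pair over 0.1 except 1 each in SH_E2 against NC_E2 and ICI_E2 against NC_E2. The labels do not say what the number marks. Alternatives were DESeq2 1.42.0, limma 3.58.1 on log2(FPKM + 1) and log2(FPKM + 0.1), other scaling and filters, the replicate block, counts divided by 4, fewer libraries and leaving out each library. Comparisons between replicate numbers were added after the data were seen. All members are accounted for by role. FPKM per library is given for members called and some others, and where none was called the 2 members with the smallest p are named. Irf2, Rsad2, Trim25, Isg15, Irgm1 and the genes beside Ifitm3 and Ifngr2 were described after their values were seen. Some further pathway genes are not reported here.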

Additional observations from a re-analysis of the deposited data

Results flagged for a closer look

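The difference between replicates 3 and 1 was larger in the hairpin arm (SH_E2 and SH) than in the ICI, Tamo and NC arms for 9 of the 40 tested genes. This was tested by an interaction term in edgeR with Benjamini-Hochberg adjustment. Of all genes tested, 4.32% were called, 2.55% higher, and leaving out single libraries gave 4 to 9 members called. The excess in log2 was 1.80 for Rsad2, 1.68 for Mx2, 1.61 for Oasl2, 1.59 for Gbp3, 1.55 for Isg15, 1.49 for Ifih1, 1.03 for Gbp7, 0.78 for Samd9l and 0.73 for Isg20, with adjusted p from 0.000234 to 0.0373. For replicate 2 against replicate 1, the difference in the hairpin arm exceeded that in the other arms by 0.98 for Isg15 (adjusted p = 0.0126, edgeR) and 0.89 for Gbp3 (adjusted p = 0.0467) and was smaller for Irgm2 (-0.62, adjusted p = 0.0121). Of all genes, 4.92% were called in that comparison, and leaving out single libraries gave 0 to 4 members called.

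Among the 40 tested genes, 6 E2 effects ran one way in all 3 same-numbered pairs of an arm and the opposite way in all 3 NC pairs. The share of all genes with such a pattern was not counted, so these cases are a description. In the SH arm the pairing by number is weak, since 2 of 6 libraries correlated best with their own number. Ifngr1 was higher with E2 in the SH pairs (1.37 above the NC effect in log2) and in the Tamo pairs (1.21 above it), and Ifnar1 in the Tamo pairs (0.47 above it), while each was lower with E2 in the NC pairs. Adar was lower with E2 in the ICI pairs (-0.55 relative to NC), as was Irgm2 in the ICI pairs (-0.24) and the Tamo pairs (-0.25), and both were higher with E2 in the NC pairs. None of these 6 differences was called in edgeR, with adjusted p of 0.9999 or 1, and the smallest unadjusted p was 0.0152, for Ifngr1 in SH.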

How the results depend on the processing

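With the replicate block, 14 members were called for SH against NC in place of 5, and 16 for SH_E2 against NC_E2 in place of 6, while all genes called went to 2572 and 2667 in place of 1105 and 1168. For SH_E2 against NC_E2 the numbers met the pairing criterion in all pairs but 1, and 4 of 6 libraries correlated best with their own number, as did 2 of 6 for E2 in SH and 6 of 6 in every other comparison between groups. A filter at 5 FPKM left 2 members called in each hairpin comparison and 1 for the SH arm difference of replicate 2 against 1 in place of 3, since fewer members were then tested. For E2 over the 4 arms the replicate block and DESeq2 called 1 member, Gbp11, in place of 0. The block changed no other count of members called.

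Leaving out each library in turn gave 4 to 5 members for SH against NC, 5 to 7 for SH_E2 against NC_E2, 0 to 1 for E2 over the 4 arms (1 without ICI replicate 1, Gbp11 at adjusted p = 0.0324 in edgeR), 0 to 4 and 4 to 9 for the SH arm differences of replicates 2 and 3 against 1, and 30 to 31, 26 to 29 and 22 to 24 for replicates 2 against 1, 3 against 1 and 2 against 3. Rsad2 for SH against NC ran from -2.16 without SH replicate 2 to 0.01 without NC replicate 2, against -1.31, and the cause was not tested. Irgm2 lost its call for SH against NC with no filter (adjusted p = 0.0769), with the libraries of the comparison alone (0.162) and with replicates 2 and 3 alone (0.0817). Ifngr1 lost its call for SH_E2 against NC_E2 under the same 3 settings (adjusted p = 0.0586, 0.101 and 0.220). Under the settings other than leaving out a library, 175 of 182 counts of members called stayed within 1.5 times the count given. Many of these were 0 in both fits. The 7 that moved are those given above for the replicate block, the filter at 5 FPKM and DESeq2. Among single members compared between groups, leave-one-out fits kept the sign and the call status of 494 of 504 values. Of the others, 8 lost a call, 1 gained a call and 1 changed sign.

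Depth as a limit on precision was not tested. The estimated counts of Gbp11 ran from 8 to 268 and those of Oas1a from 24 to 378 in a library.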
